A study of Mus musculus with 8 samples.

Results

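Complement is the set of plasma and membrane proteins that tags cells and debris for removal, and 34 of its genes were followed here in mouse heart ventricle. They were taken by symbol from a fixed list of components, receptors and regulators, and each of the 34 matched 1 row of the gene table, out of 23100 rows in all. The tissue was cardiac ventricle with the atria removed, from mice aged 4.5 months. The 4 control animals (Ctrl) were Sox5fl/fl, Sox6fl/fl and negative for aMHC-Cre. The 4 double knockout animals (DKO) were Sox5fl/fl, Sox6fl/fl and positive for aMHC-Cre, a Cre recombinase driven by the promoter of the cardiac myosin heavy chain gene Myh6, which acts on the floxed Sox5 and Sox6 genes, both encoding SoxD transcription factors, in cardiomyocytes and not in the other cells of the ventricle. Ctrl animals lacked Cre, so the presence of Cre and the deletion cannot be told apart. The labels name no operation, although the series title names pressure overload.

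Complement can be started in several ways. In the classical pathway C1q binds its target and activates the proteases C1r and C1s, which cleave C4 and C2. In the lectin pathway the MASP proteases do this after a lectin has bound sugars. Both pathways, and the alternative pathway of factor B, factor D and properdin, converge on C3. Cleaved C3 marks surfaces for uptake, small fragments of C3 and C5 call in and activate leukocytes, and C5 to C9 build a pore in membranes. Membrane and plasma regulators hold each step back. The liver makes most of the plasma pool, and macrophages and fibroblasts make part of it within tissues.

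The deposited tables hold 1 value per genotype in FPKM (fragment counts scaled to transcript length and library size), so no value per animal, no spread between animals and no read depth can be given. Every level below is the authors' FPKM value, with DKO before Ctrl, and every fold was computed from these values. A gene was called when the q-value of the authors' Cuffdiff comparison was at most 0.05. Sox6 itself was listed at 1.69 against 3.39 FPKM and was called lower, in the direction of the genotype label. Sox5 was not tested, and its 0.497 against 0.369 FPKM, higher in DKO, does not show the labelled deletion. The cardiomyocyte markers Myl2, Mb and Actc1 were at 12506 FPKM or more in both genotypes.

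Of the tested complement genes, most were called higher in DKO ventricles, among them C1q and its proteases, C3 and the fragment receptor genes C3ar1 and C5ar1. Cuffdiff tested 21 of the 34 genes, and 13 of the 21 were called higher and 0 lower. Among all 12133 tested genes, 4.30% were called higher and 3.06% lower. The median log2 ratio of DKO over Ctrl was 0.47 over the 21 tested complement genes and -0.0042 over all tested genes. The folds of the 13 called genes ran from 1.31 to 1.67, with a median of 1.42, beside a median of 1.49 over all genes called higher. The 13 genes were C1qa, C1qb, C1qc, C1ra, C1s, Masp1, C3, Cfp, C7, C3ar1, C5ar1, Serping1 and Clu. In bulk tissue, more cells that make a transcript and more transcript per cell cannot be told apart.

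The 13 untested genes were all at low level. Every untested complement gene was at 0.899 FPKM or less in both genotypes, and every tested one at 0.936 FPKM or more. Cuffdiff's rule for leaving a gene untested is not given here. A gene near that edge, such as Cfb at 1.41 against 0.936 FPKM, may have been tested only for its DKO value. The lowest value among the 13 called genes was that of C3ar1 in Ctrl, at 1.72 FPKM. The calls were well separated from the rest, since the highest q-value among called members in the authors' deposited table was 0.0154 and the lowest among the 8 tested but uncalled members was 0.0826. The smallest deposited p-value, 5e-05, was carried by 9 of the 13 called members, and these 9 share 1 q-value. With q at most 0.01, 10 members were called higher and 0 lower, beside 2.74% and 1.58% of all tested genes. With a fold of at least 1.3 as well as q at most 0.05, the counts were 13 and 0, beside 3.60% and 1.71%.

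**Figure D1:**
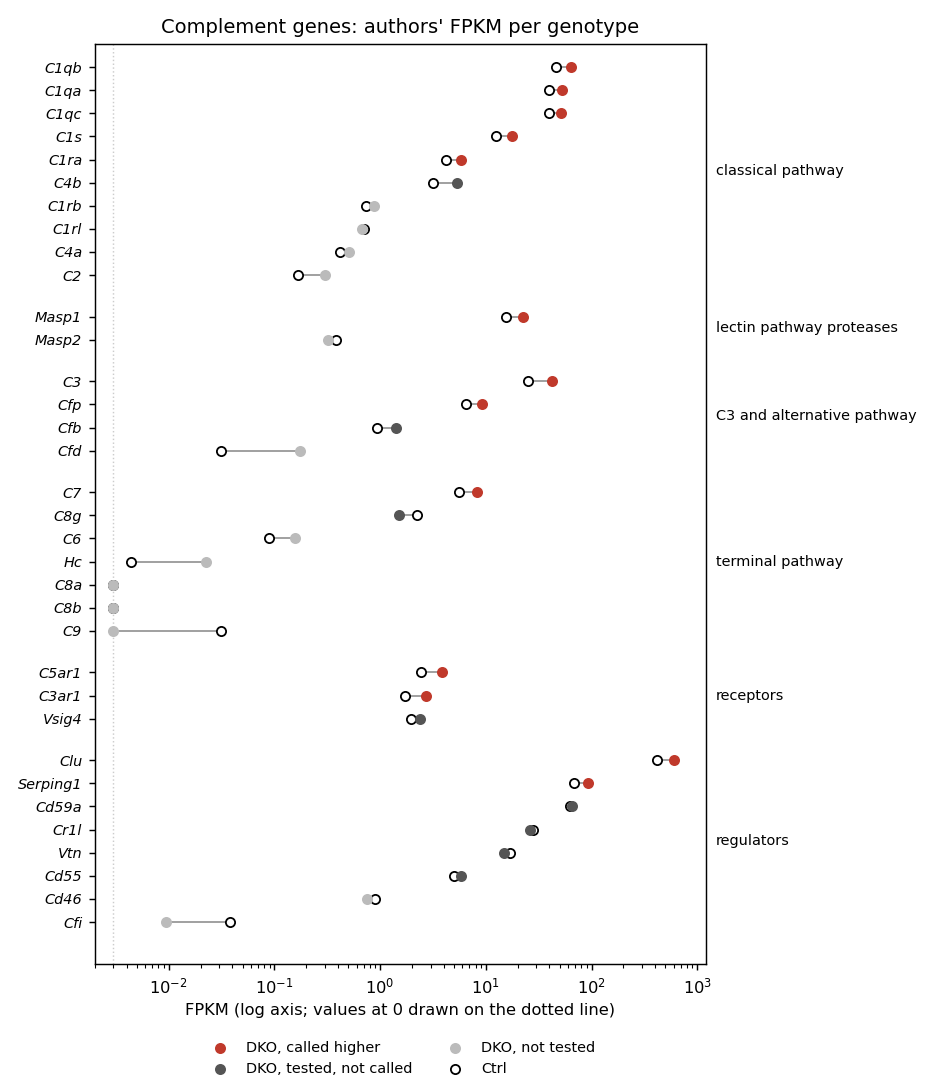
Authors' FPKM value of each of the 34 complement genes on a log axis, by role, with Ctrl as open circles and DKO as filled circles coloured by call; values of 0 are drawn on the dotted line. Clu stands highest, at 596 against 420 FPKM, and the 13 genes not tested all lie below 0.9 FPKM, 2 of them at 0 in both genotypes.

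The genes of all 3 chains of C1q, the molecule that recognises antibody-coated and dying cells, rose. C1qa stood at 53.0 against 39.7 FPKM, a 1.34-fold difference (log2 0.42). C1qb was at 63.3 against 45.8 FPKM (1.38-fold) and C1qc at 51.6 against 39.3 FPKM (1.31-fold). Their q-values in the authors' deposited table were 0.00290, 0.00158 and 0.0102. The chains kept nearly the same proportions in both genotypes: C1qb made up 37.7% of the summed C1q FPKM in DKO and 36.7% in Ctrl, and C1qa 31.6% and 31.8%. In the mm9 build the 3 genes lie side by side on chromosome 4, within 18699 bases between 136436061 and 136454759. The only other tested gene within 100 kb of them, Zbtb40, was not called at 2.55 against 2.31 FPKM. Over all tested genes 4.30% were called higher, so 1 uncalled neighbour does not show that the difference was limited to C1q.

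The promoters of C1qb and C1qc, neighbours that rose together, and of C3, the called member with the largest fold, show what lies directly before their starts. Each is 250 bases before and 50 bases after the annotated start in RefSeq on build GRCm38.p6, written 5′ to 3′ on the strand of the gene, which is the minus strand for all 3. Capitals mark GAGGAA on either strand, a core letter pattern of ETS factors such as PU.1 of myeloid cells, and TTGCNNAA on either strand, a pattern of C/EBP factors.
C1qb promoter, chr4:136886151-136886450: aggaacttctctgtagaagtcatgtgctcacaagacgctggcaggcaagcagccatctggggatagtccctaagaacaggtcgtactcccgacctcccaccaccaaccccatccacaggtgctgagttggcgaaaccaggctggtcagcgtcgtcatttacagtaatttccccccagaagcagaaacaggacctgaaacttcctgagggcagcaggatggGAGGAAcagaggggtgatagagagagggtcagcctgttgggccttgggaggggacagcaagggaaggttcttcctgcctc
C1qc promoter, chr4:136892865-136893164: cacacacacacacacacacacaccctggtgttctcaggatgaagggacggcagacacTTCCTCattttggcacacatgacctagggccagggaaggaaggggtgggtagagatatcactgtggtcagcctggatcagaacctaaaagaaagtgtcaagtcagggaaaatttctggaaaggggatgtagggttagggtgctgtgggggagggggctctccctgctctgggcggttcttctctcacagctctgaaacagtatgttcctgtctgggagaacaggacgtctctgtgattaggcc
C3 promoter, chr17:57228087-57228386: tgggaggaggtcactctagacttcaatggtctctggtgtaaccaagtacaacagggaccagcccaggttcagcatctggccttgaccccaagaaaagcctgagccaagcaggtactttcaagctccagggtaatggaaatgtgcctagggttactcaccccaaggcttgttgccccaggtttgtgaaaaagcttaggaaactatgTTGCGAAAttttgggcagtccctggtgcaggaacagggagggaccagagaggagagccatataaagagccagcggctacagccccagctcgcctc
C1qb and C1qc each held 1 match to the ETS pattern, beginning 30 and 193 bases before the start, and C3 held 1 match to the C/EBP pattern, beginning 45 bases before the start. These patterns are common: GAGGAA was found in 28.3% and TTGCNNAA in 10.8% of all 32851 RefSeq promoters of the same length.

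RefSeq promoters were matched for 25 of the 34 members, 9 of them called higher, with C1s matched under its current symbol C1s1. GAGGAA was found in 6 of the 25 members and 4 of the 9 called, and TTGCNNAA in 6 and 3. The pattern AACAAT of SoxD and other Sox factors was found in 1 of the 25, the untested gene Cd46, and in 10.7% of all promoters. TTCNNNGAA, a STAT pattern, was found in 6 of the 25 members, 2 of the 9 called and 8.30% of all promoters. An IRF pattern was found in 3 of the 25, 0 of the 9 called and 3.44% of all promoters. Both strands were searched. The matches describe letters in these windows and were not tested for binding.

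The genes C1ra and C1s, of the proteases of the C1 complex, rose as well. C1s, the protease that cleaves C4 and C2, was at 17.8 against 12.6 FPKM (1.41-fold), and C1ra, which activates C1s, at 5.77 against 4.19 FPKM (1.38-fold), with q-values of 0.00158 and 0.0120 in the authors' deposited table. The level of C1s was 3.09 times that of C1ra in DKO and 3.01 times in Ctrl. C1rb, a copy of C1ra, was at 0.881 against 0.729 FPKM, and C1rl, a C1r-like protease gene, at 0.669 against 0.699 FPKM, and neither was tested. These 4 genes lie within 87932 bases on chromosome 6, between 124443131 and 124531062. None of the 3 other tested genes within 100 kb was called, beside 4.30% called higher and 3.06% lower over all tested genes. With shares this small, 0 of 3 does not show that the difference was limited to the complement genes.

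The substrates of C1s were not called. C4b was at 5.28 against 3.13 FPKM, the largest ratio among the tested members (1.69-fold, log2 0.75), but its q-value in the authors' deposited table was 0.102. C4a was at 0.507 against 0.414 FPKM and C2 at 0.304 against 0.166 FPKM, both untested. C4b is listed with the same 134453 bases of chromosome 17 as Tnxb, a matrix protein gene called higher at 31.3 against 24.0 FPKM, and no source used here states that strands were counted apart. Of the 4 neighbours C4b, C4a, Cfb and C2, 2 were tested, C4b and Cfb, and 0 were called. Both had the higher value in DKO, with unadjusted Cuffdiff p of 0.00985 and 0.00735. Of 22 other tested genes in the stretch or within 100 kb of it, 4 were called higher, beside 4.30% of all tested genes. These were Tnxb and the heat shock genes Hspa1a, Hspa1b and Hspa1l, all named after their values were seen. The heat shock gene Hspa1b was at 11.0 against 1.54 FPKM.

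Several of these genes have near-identical copies. No source used here states how reads shared by copies were assigned, which leaves the value of each copy uncertain. In GENCODE transcripts on GRCm38, 59.2% of the 50-base windows of C1rb also occur in C1ra, and 48.0% of those of C1ra occur in C1rb. For C4b, 35.2% of the windows occur in C4a. For C1s1, the current symbol of C1s, 24.3% occur in C1s2, listed in these tables as Gm5077 at 0.904 against 0.533 FPKM. Of the windows of C1qa, 0 occur in C1qb or C1qc.

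Of the lectin pathway protease genes, Masp1 was called higher and Masp2, at low level, was not tested. In DKO, 98.4% of the Masp1 level lay in a short form with no listed coding sequence, described below. The Masp1 form with a listed coding sequence was at 0.363 against 0.262 FPKM and was not tested. Masp1, which gives several proteins by alternative splicing, was at 22.3 against 15.5 FPKM (1.44-fold, log2 0.52, q = 0.00158, the authors' deposited table). Masp2, the protease that cleaves C4 and C2 after lectin binding, was at 0.319 against 0.385 FPKM.

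C3, on which all pathways converge, had the largest fold of the called members. Its level was 42.0 against 25.1 FPKM, a 1.67-fold difference (log2 0.74, q = 0.00158, the authors' deposited table). By this ratio C3 ranked 237th from the top among the 12133 tested genes. Cfp, the gene of properdin, which stabilises the alternative convertase, rose from 6.45 to 9.14 FPKM (1.42-fold, q = 0.0154 in the authors' deposited table). Cfb, the gene of factor B, the protease of that convertase, was at 1.41 against 0.936 FPKM. For it the authors' deposited table gives an unadjusted p of 0.00735 and q = 0.0826. Cfd, the gene of factor D, which activates factor B, was low at 0.174 against 0.0316 FPKM and was not tested.

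**Figure D2:**
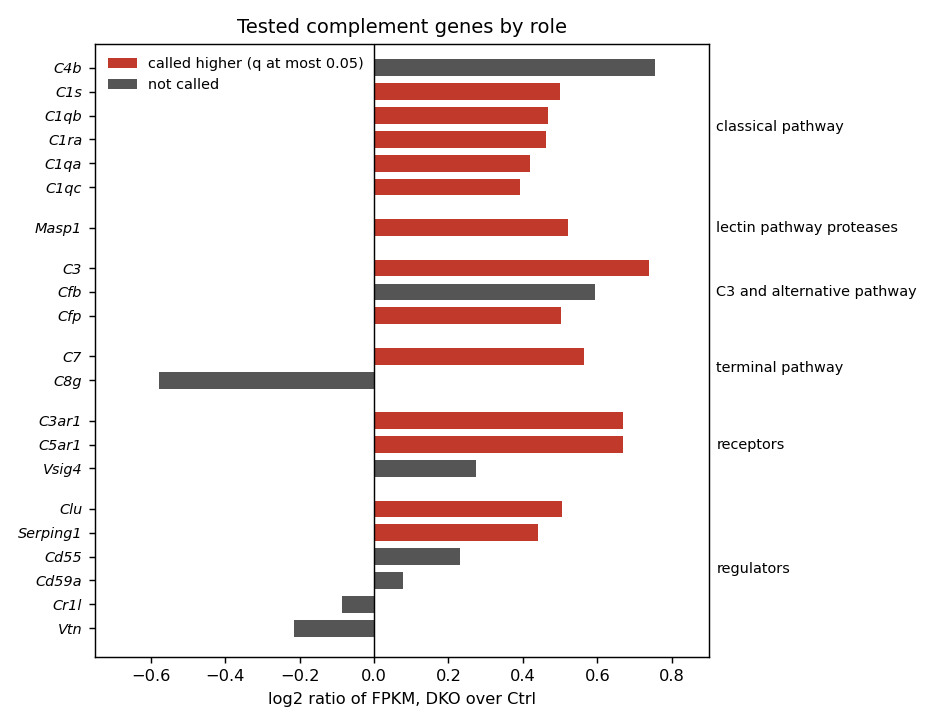
The log2 ratio of FPKM, DKO over Ctrl, for the 21 tested complement genes, grouped by role, with called genes in red and uncalled genes in grey. C4b, at 0.75, and C3, at 0.74, have the longest bars, and of these only C3 was called; C8g, Cr1l and Vtn lie below 0.

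Of the 7 terminal genes, 2 were high enough to be tested, and 1 of them rose. C7, which anchors the growing pore complex in the membrane, was at 8.20 against 5.55 FPKM (1.48-fold, q = 0.00158 in the authors' deposited table). C8g, the gamma chain of C8, was at 1.504 against 2.244 FPKM, where the authors' deposited table gives an unadjusted p of 0.0440 and q = 0.281. Hc, which encodes C5, was at 0.0223 against 0.00438 FPKM and C6 at 0.156 against 0.0891 FPKM. C8a and C8b, the other chains of C8, were listed at 0 in both genotypes, and C9, which polymerises into the pore, at 0 in DKO and 0.0313 FPKM in Ctrl. These 5 genes were not tested. C6, C7 and C9 lie within 1771267 bases of chromosome 15. Of 8 other tested genes in the stretch or within 100 kb of it, 3 were called higher, beside 4.30% of all tested genes. These were Dab2, Fyb and Ptger4, named after their values were seen.

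The 2 tested genes for receptors of the small fragments rose. C3ar1, a receptor for the fragment of C3, was at 2.74 against 1.72 FPKM (1.59-fold, log2 0.67). C5ar1, a receptor for the fragment of C5, was at 3.87 against 2.43 FPKM (1.59-fold, log2 0.67). Each was at q = 0.00158 in the authors' deposited table. Gpr77, which is not a member and encodes another receptor for the fragment of C5, was at 0.511 against 0.521 FPKM and was not tested. Vsig4, a receptor of tissue macrophages for C3-coated particles, was not called, at 2.36 against 1.96 FPKM (q = 0.686, the authors' deposited table).

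Among the regulators, the genes Clu and Serping1, of secreted proteins, were called higher, but Vtn, also of a secreted protein, was not. No tested gene of a membrane regulator was called. Clu encodes clusterin, a chaperone of body fluids that binds terminal complexes. At 596 against 420 FPKM (1.42-fold, log2 0.51) it was the 152nd highest row of the whole table in DKO and the 237th in Ctrl, and it made up 54.5% and 51.9% of the summed FPKM of the 34 genes. Serping1, which encodes the inhibitor of C1r, C1s and the MASPs, was at 91.8 against 67.6 FPKM (1.36-fold). Both were at q = 0.00158 in the authors' deposited table. Vtn, which encodes vitronectin, another fluid inhibitor of the pore, was at 14.7 against 17.1 FPKM and was not called (q = 0.357, the authors' deposited table).

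Cd59a, which blocks the pore, was at 66.0 against 62.6 FPKM (1.05-fold) and Cr1l, the rodent regulator of C3 cleavage known as Crry, at 26.2 against 27.9 FPKM (1.06-fold lower). Cd55, which speeds the decay of convertases, was at 5.80 against 4.94 FPKM (1.17-fold). Their q-values in the authors' deposited table were 0.834, 0.829 and 0.419. Cd46, a cofactor for cleavage of C3 products, was at 0.757 against 0.899 FPKM and Cfi, the protease that does the cleaving, at 0.00937 against 0.0382 FPKM, both untested. No test of the difference between the secreted and membrane regulators can be made from these tables.

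By role, 5 of the 6 tested classical genes were called higher, 1 of 1 lectin protease, 2 of 3 genes of C3 and the alternative pathway, 1 of 2 terminal genes, 2 of 3 receptors and 2 of 6 regulators. The median log2 ratios of these groups were 0.46, 0.52, 0.59, -0.0069, 0.67 and 0.15. The groups hold few genes and differ in level, and the differences between them were not tested.

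Transcript tables show which forms carry these values. The authors' deposited tables list 48 isoforms, 41 start site groups and 36 coding sequences for the 34 genes. Of the tested ones, 12 of 31 isoforms, 12 of 28 start site groups and 11 of 20 coding sequences were called higher and 0 lower. Among all tested features, 1.90% of isoforms, 2.95% of start site groups and 2.98% of coding sequences were called higher, and 1.12%, 1.99% and 1.66% lower. Cuffdiff divides reads that overlapping transcripts share by estimation, which makes an isoform's value less firm than its gene's.

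Masp1 was carried almost wholly by a short transcript. An isoform of 1191 bases, a spliced form that the reference lacks, was at 21.9 against 15.3 FPKM and held 98.4% of the gene's FPKM in DKO and 98.3% in Ctrl. It rose (q = 0.00312, the authors' deposited table). The reference transcript of 2752 bases, the only one with a listed coding sequence, was at 0.363 against 0.262 FPKM and was not tested. The call of Masp1 therefore rests on a transcript for which the tables list no coding sequence.

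Clu was spread over 8 isoforms. The most abundant, of 1615 bases and also absent from the reference, was at 406 against 294 FPKM (1.38-fold) and rose (q = 0.0125, the authors' deposited table). The reference transcript of 1808 bases was at 114 against 73.9 FPKM (1.54-fold, q = 0.138, the authors' deposited table). These 2 held 68.1% and 19.1% of the gene's FPKM in DKO and 69.9% and 17.6% in Ctrl. The only coding sequence listed for Clu has the values of the 1808-base transcript. It was not called (q = 0.103, the authors' deposited table), and the called isoform of 1615 bases has no coding sequence listed. Some minor forms had opposite signs. The form of 1628 bases had 4.47 against 0.0223 FPKM, whereas the form of 1633 bases was listed at 0 in DKO and at 1.67 FPKM in Ctrl, and neither was called.

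The rise of C5ar1 could not be placed on 1 of its 2 start sites. The isoform of 2481 bases was at 2.04 against 1.93 FPKM, and that of 2540 bases, from the other start, at 1.83 against 0.503 FPKM (3.64-fold). The second held 47.3% of the gene's FPKM in DKO and 20.7% in Ctrl. Neither isoform was called (q = 0.984 and q = 0.737, the authors' deposited table).

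In C1s, the isoform of 2910 bases rose, at 15.8 against 10.2 FPKM (1.55-fold, q = 0.00312 in the authors' deposited table), while the isoform of 2947 bases was at 2.05 against 2.44 FPKM and was not called. In C1qb, the reference transcript of 1061 bases rose, at 43.0 against 30.8 FPKM (q = 0.0471, the authors' deposited table), and a form of 940 bases from another start was at 20.3 against 15.0 FPKM and was not called. The 2 isoforms each of Cd59a, Cfb and Masp2 held no call.

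**Figure D3:**
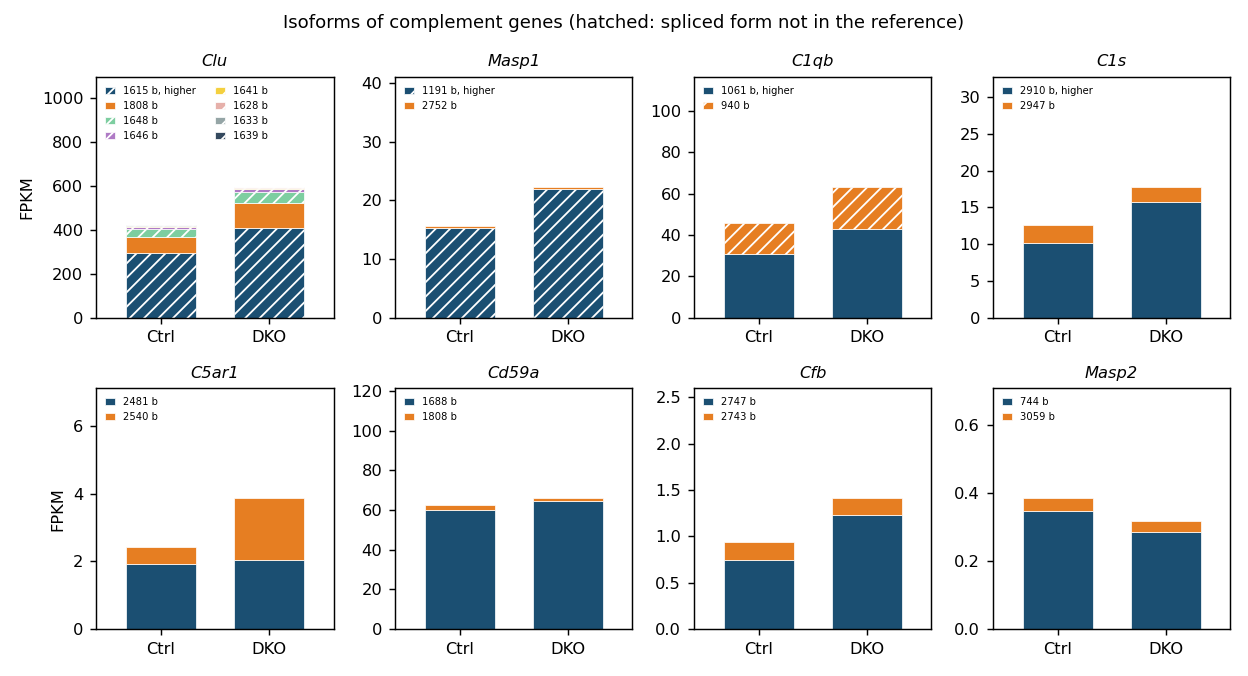
Isoform FPKM of the 8 complement genes with more than 1 isoform, stacked for Ctrl and DKO, with spliced forms absent from the reference hatched and isoforms called higher marked in the keys with their lengths in bases. One unannotated form of 1191 bases fills nearly the whole bar of Masp1, and the 2540-base form of C5ar1 goes from 0.503 FPKM in Ctrl to 1.83 in DKO without a call.

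Other genes of the pathway were read from a second list of 34 symbols, of which 30 rows were found and 12 tested. Of the 12, 3 were called higher and 0 lower, with a median log2 ratio of 0.066. Itgam and Itgb2, the 2 chains of complement receptor 3 of phagocytes, were at 3.09 against 1.87 and 3.72 against 2.40 FPKM. Both were at q = 0.00158 in the authors' deposited table. Calr, a chaperone that C1q can bind, was at 164 against 151 FPKM, and C1qbp, a mitochondrial protein that binds C1q, at 148 against 173 FPKM. The membrane protein Cd93 was at 21.8 against 23.5 FPKM, and the collectins Colec11 and Colec12 were at 19.65 against 17.96 and 8.46 against 7.04 FPKM. These 5 were the uncalled genes with the highest level.

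Markers of cells known to make complement moved with these genes. Of 19 tested macrophage markers, 12 were called higher and 0 lower, with a median log2 ratio of 0.60. Their summed level was 366 FPKM in DKO and 227 in Ctrl (1.61-fold), beside 168 and 125 FPKM for the 3 C1q chains (1.35-fold), and no macrophage marker was at 0. Lyz2 alone gave 189 and 107 FPKM of the macrophage sums, so it weighs most in their ratio. The median fold of the 19 markers, in which Lyz2 counts as 1 gene, was 1.51. Tyrobp was at 31.8 against 22.1 and Ctss at 21.1 against 12.0 FPKM. Of 15 tested fibroblast markers, 10 were called higher and 0 lower, with a median log2 ratio of 0.36 and a summed level of 1534 against 1218 FPKM. Gsn was at 565 against 480, Dcn at 465 against 376 and Dpt at 73.1 against 59.1 FPKM. The part of either cell type in the complement values was not tested.

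Few markers of other cells were called. Of 12 endothelial and 12 cardiomyocyte markers, 0 were called, with median log2 ratios of -0.052 and -0.21 and summed levels of 498 against 525 and 81758 against 95792 FPKM. By the unadjusted p of the authors' deposited table, at 0.05, 1 endothelial marker (Kdr, 61.4 against 70.4 FPKM) and 4 cardiomyocyte markers (Mb, Myl2, Ryr2 and Tnni3) were lower and 0 higher. At the same threshold, 17 of the 19 macrophage and 14 of the 15 fibroblast markers were higher and 0 lower. Of 13 genes of liver and plasma proteins, 2 were tested and 0 called, with 1 higher at the unadjusted threshold. Apoa2 was at 2.72 against 1.54 FPKM (p = 0.0459, the authors' deposited table) and Ahsg at 1.62 against 1.32 FPKM. Albumin, Alb, was listed at 0 in DKO and at 0.0131 FPKM in Ctrl, and 3 of the 13 were at 0 in both genotypes. Of 9 adipocyte markers, 3 were tested and 0 called, with 1 lower at the unadjusted threshold. These were Lpl at 1462 against 1782, Fabp4 at 1079 against 1111 and Plin4 at 58.0 against 60.7 FPKM. The 6 untested ones were far lower, among them Cidec at 0.0402 against 0.0352 and Plin1 at 0.0237 against 0.0149 FPKM. The list therefore cannot show whether Lpl, Fabp4 and Plin4 came from adipocytes. Adipoq was at 0.0394 against 0.0240 FPKM, beside the low level of Cfd, which adipocytes make. Of 2 tested mesothelial and epicardial genes, 1 was called higher, Aldh1a2, at 4.38 against 2.55 FPKM. Of 10 lymphocyte markers, all 10 had the higher value in DKO, and their summed level was 5.18 against 2.74 FPKM (1.89-fold). Only Cd79b of them was tested, at 1.42 against 0.752 FPKM, and it was not called (p = 0.00940 and q = 0.0988, the authors' deposited table). The T cell gene Cd3e was at 0.260 against 0.0200 FPKM. Of 6 tested neutrophil and mast cell markers, 0 were called and 0 had an unadjusted p of at most 0.05 by Cuffdiff. The part of these cells in the complement values was not tested either.

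**Figure D4:**
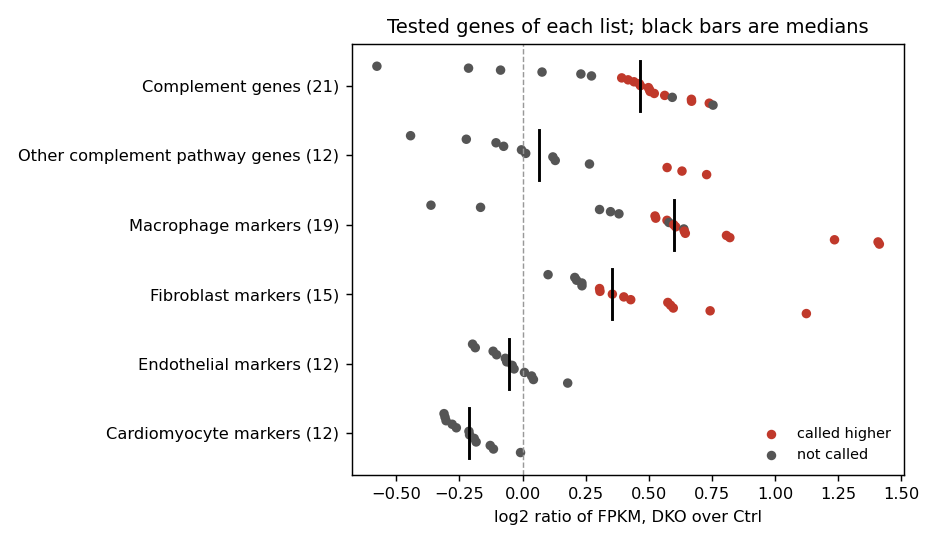
The log2 ratio of FPKM, DKO over Ctrl, of each tested gene in the complement list and 5 other lists, with the number of tested genes in brackets, called genes in red and medians as black bars. Complement genes have a median of 0.47, between those of fibroblast markers (0.36) and macrophage markers (0.60), and the medians of endothelial and cardiomyocyte markers lie below 0.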

How the data were processed

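Ventricular RNA of 8 mice, 4 per genotype, was sequenced as single-end Illumina libraries made with a TruSeq kit, per the labels' protocols. The build mm9 and the tools TopHat2 2.0.9, Cufflinks 2.1.1 and Cuffdiff 2.1.1 come from the submitters' processing notes. Nothing in the sources used here gives the annotation, the settings or the strand handling. The 4 tables used hold the authors' FPKM values, 1 per genotype, for genes, isoforms, start site groups and coding sequences, per the file headers. The p-values and q-values are those of the authors' Cuffdiff comparison. The deposited log2 column was not used; log2 ratios and folds, DKO over Ctrl, were computed from the FPKM values without a pseudocount. Positions are in mm9, counted from 1. No test was run over animals, since the tables hold no value per animal and the depth is unknown, so no interval or detection limit was computed.

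All 34 members are accounted for. Of other pathway genes, called ones and the 5 uncalled with the highest FPKM are named, and of each marker list up to 3 with the highest FPKM; others were chosen after their values were seen. Of the called pathway genes, 1 is counted but its values are not reported here. Members and lists were chosen with earlier results of these data known. The counting steps were tested on simulated data. Python 3.11.15, pandas 2.3.3, numpy 2.4.6 and matplotlib 3.10.9 were used.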

Additional observations from a re-analysis of the deposited data

How the results depend on the processing

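The count of 13 complement genes called higher became 3 (C3, C3ar1 and C5ar1) with a fold of at least 1.5, a rule that can only remove calls. It was between 10 and 13 with a q of at most 0.01, a fold of at least 1.3, a mean FPKM of at least 1 or 5, rows naming 1 gene only, and the most abundant isoform, start site group or coding sequence in place of the gene. All 34 members lie in rows naming 1 gene only, and all called members were above 1 FPKM in both genotypes. Neither the 1-gene rule nor the FPKM minimum of 1 could therefore change the count. The other q, fold and FPKM rules could only remove calls. At a q of at most 0.01, C1qc, C1ra and Cfp dropped out. The count of genes called lower was 0 under all of these settings, where only the transcript settings could have added a call. The median log2 ratio of the tested members, 0.47, became 0.44 with log2(FPKM + 1), which shrinks the ratios of low genes, and 0.47 with coding sequences, where fewer members are tested; it lay between 0.46 and 0.47 with log2(FPKM + 0.1), with the groups rescaled to a median of 0 and with isoforms or start site groups. Of 29 genes with a value, the 21 tested members and 8 pathway genes, each kept its direction under all 6 settings. That was largely fixed beforehand. Adding a constant to both values cannot change a direction, and the rescaling shifts every ratio by the same small amount. A member with a single isoform has the same values in the transcript tables. C5ar1 was no longer called by its main isoform or start site (log2 0.080), nor Masp1 (0.47) and Clu (0.63) by coding sequence, where the test of Masp1 was not run. The rescaling keeps the authors' calls and removes a median of -0.0042, so it does not check their normalization. No paired analysis was possible because the tables hold 1 pooled value per genotype, and for the same reason no animal could be left out. The calls rest on the authors' test, whose use of the spread between animals cannot be examined here.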

Other observations

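Genes that share the C1q domain but are not part of complement can be set beside the C1q chains. Of 16 listed genes named C1qtnf, C1ql or Cbln, 7 were tested and 0 were called by Cuffdiff, with 1 at an unadjusted p of at most 0.05. That gene, C1qtnf6, was at 6.18 against 4.68 FPKM in DKO and Ctrl (q = 0.0558, the authors' deposited table). C1qtnf9, the most abundant, was at 29.4 against 32.4 FPKM. The median log2 ratio of the 7 was 0.18, and the list was chosen after the data were seen.

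Markers of tissue macrophages other than Vsig4 were mixed. Chosen after their values were seen, Lyve1 was at 9.94 against 11.2 FPKM and Timd4 at 1.13 against 1.45. Folr2 was at 15.4 against 11.8 and Cd163 at 5.99 against 4.71 FPKM. None of these was called, with Cuffdiff q-values of 0.545, 0.491, 0.0727 and 0.0515, so Folr2 and Cd163 lay close to the threshold. In the same list Mrc1, also a tissue macrophage marker, was called higher at 11.0 against 7.61 FPKM. Lgals3, at 5.65 against 2.12 FPKM, and Mpeg1, at 5.75 against 2.17, were called higher too. The difference between these markers was not tested.

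Some pathway genes below the level at which Cuffdiff tested had large ratios that carry no test. Chosen after their values were seen, Itgax, a chain of complement receptor 4, was at 0.566 against 0.152 FPKM, the pentraxin Ptx3, which binds C1q, at 0.676 against 0.279, and Cd209a, a lectin of dendritic cells, at 0.921 against 0.172.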
